A study of Mus musculus with 35 samples.

Results

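The mouse histone genes were examined for peaks of NELFA, the A subunit of the negative elongation factor (NELF). The members were the protein-coding genes of the RefSeq gene table whose symbols follow the naming of the H1, H2A, H2B, H3 and H4 genes, including the variants H2A.X, H2A.Z and H3.3. The rule found 74 histone genes among 21883 protein-coding genes and used no measured value. The 74 comprised 10 H1, 20 H2A, 16 H2B, 16 H3 and 12 H4 genes. Of these, 63 stood in 3 clusters, each of 3 or more of the 74 genes with gaps of at most 250 kb. The other 11 were counted as lone genes.

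The cells were E14 mouse embryonic stem cells with Strep-HA-tagged NELFA under doxycycline control, grown with serum, LIF and 2i. All of the chromatin immunoprecipitation (ChIP-seq) libraries came from cells given doxycycline at 0.4 µg/ml for 16 h. There were 4 immunoprecipitated libraries from 3 replicates, 3 with one HA antibody and 1 with another, and 3 libraries of input chromatin. No uninduced or untagged ChIP library was among them, so input was the one kind of control sequenced. How it entered the peak calls is not given. The tagged protein was measured in an induced line rather than at its native level. All 7 libraries stand behind 1 list of 59485 peaks, which carries no value for a single library. Fold enrichments therefore have no replicate error, the read depth is unknown, and no comparison below was tested over replicates. Intervals on shares are 95% Wilson intervals. They cover counting error only, and neighbouring histone genes that share a peak are not independent.

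Most core histone genes are replication-dependent. They are transcribed in S phase, hold no introns and give mRNAs that end in a stem-loop, bound by SLBP, instead of a poly(A) tail. The U7 small nuclear ribonucleoprotein directs the cleavage of that end. NELF holds RNA polymerase II in a paused state shortly after initiation, and together with the nuclear cap-binding complex it has also been linked to the 3′ processing of histone mRNAs. Lone variant genes such as those of H3.3 and H2A.Z are transcribed throughout the cell cycle, and their mRNAs are polyadenylated.

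The bases upstream of the start are shown first for 5 genes with a peak at the start, chosen because they held strong clustered peaks or represent the lone variants. These and the later sequences are from RefSeq, build GRCm38.p6, and read 5′ to 3′ along the gene, each ending at the base before the annotated start. Capitals mark TATAAA, the letters of a TATA box. They also mark CCAAT, which is bound by NF-Y, and ATTTGCA, most of the octamer bound by OCT factors. Reverse complements are in capitals too, such as ATTGG in place of the NF-Y letters. The stretches lie at chr13:21750554-21750653 (H4c12, minus strand), chr13:23562386-23562485 (H3c6, minus), chr13:23738707-23738806 (H1f2, plus), chr3:137864387-137864486 (H2az1, plus) and chr1:180813606-180813705 (H3f3a, minus).
H4c12: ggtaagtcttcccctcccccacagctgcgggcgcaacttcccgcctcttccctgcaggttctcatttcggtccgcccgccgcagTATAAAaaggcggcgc
H3c6: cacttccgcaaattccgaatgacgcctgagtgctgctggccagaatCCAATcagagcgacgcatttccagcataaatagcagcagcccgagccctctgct
H1f2: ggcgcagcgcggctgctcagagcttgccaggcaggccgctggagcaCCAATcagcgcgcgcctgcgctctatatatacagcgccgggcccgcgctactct
H2az1: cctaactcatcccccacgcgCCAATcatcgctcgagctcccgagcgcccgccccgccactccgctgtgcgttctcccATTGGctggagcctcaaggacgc
H3f3a: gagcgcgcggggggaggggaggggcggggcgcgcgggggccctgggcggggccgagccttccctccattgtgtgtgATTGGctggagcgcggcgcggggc
H4c12 had TATAAA close to its start, and none of the other 4 had it in these 100 bases. H3c6, H1f2, H2az1 and H3f3a had CCAAT or its reverse complement, which H4c12 lacked.

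For contrast, 3 genes without any peak at the start are shown in the same way: H2ac1 and H1f6, the testis H2A and H1 genes inside the second chromosome 13 cluster, and H1f0, a lone linker histone gene. They lie at chr13:23934337-23934436, chr13:23695711-23695810 and chr15:79028112-79028211, all on the plus strand.
H2ac1: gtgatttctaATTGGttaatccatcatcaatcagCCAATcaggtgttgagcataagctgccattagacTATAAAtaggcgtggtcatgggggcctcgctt
H1f6: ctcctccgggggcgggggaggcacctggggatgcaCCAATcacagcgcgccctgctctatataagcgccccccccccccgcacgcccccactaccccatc
H1f0: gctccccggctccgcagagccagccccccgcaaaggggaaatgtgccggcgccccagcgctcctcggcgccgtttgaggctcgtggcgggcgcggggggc
H2ac1 carried the TATA letters and the NF-Y letters on both strands without a peak, H1f6 carried the NF-Y letters, and none of the motifs occurred in the stretch of H1f0. Letters of these motifs were therefore present at genes with and without a peak.

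The last sequences are the spacers between the starts of H2A and H2B genes that are transcribed away from each other, shown because both genes of each pair held a summit. They are given on the plus strand, from chr13:22035644-22035820 (H2ac12 and H2bc12, 177 bp) and chr13:21716184-21716411 (H2bc13 and H2ac13, 228 bp).
H2ac12/H2bc12: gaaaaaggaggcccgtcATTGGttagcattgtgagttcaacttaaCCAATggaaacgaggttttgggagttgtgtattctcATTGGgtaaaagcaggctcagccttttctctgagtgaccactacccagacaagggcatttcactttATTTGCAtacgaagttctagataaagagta
H2bc13/H2ac13: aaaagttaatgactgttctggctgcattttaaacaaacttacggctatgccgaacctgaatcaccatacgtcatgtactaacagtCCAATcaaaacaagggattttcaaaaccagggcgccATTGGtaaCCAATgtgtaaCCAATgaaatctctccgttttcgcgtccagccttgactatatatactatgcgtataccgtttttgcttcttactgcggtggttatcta
The first spacer held CCAAT or its reverse complement 3 times and ATTTGCA once, and the second held the CCAAT letters on either strand 4 times.

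Most histone genes had a NELFA peak. A gene was counted as occupied when a summit, the highest point of a peak, lay within 1 kb of either annotated boundary. By this count 64 of the 74 histone genes (86.5%, interval 76.9 to 92.5%) were occupied, beside 18.8% of all protein-coding genes (4120 of 21883). All 12 H4 genes were occupied, as were 19 of 20 H2A genes, 14 of 16 H2B genes, 13 of 16 H3 genes and 6 of 10 H1 genes. In the clusters 59 of 63 histone genes (93.7%, interval 84.8 to 97.5%) were occupied, and among the lone genes 5 of 11 (45.5%, interval 21.3 to 72.0%). Some clustered genes were counted only through a neighbour's summit, while the lone H3f3b was missed despite a peak inside it. Summits within 250 bp of an annotated start stood at 18 of 22 genes in the first chromosome 13 cluster and 24 of 28 in the second. They stood at 5 of 8 genes on chromosome 3 and 5 of 10 lone genes. The difference between clustered and lone genes was not tested, since the list holds no replicates.

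**Figure D1:**
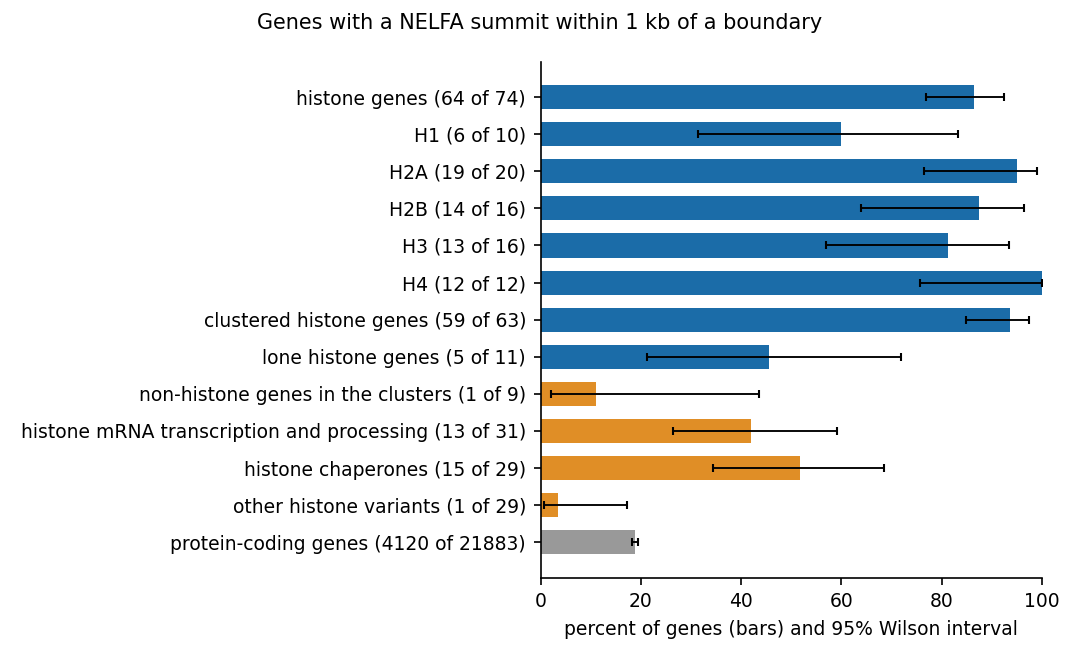
Percent of genes with a NELFA summit within 1 kb of a boundary (bars) with 95% Wilson intervals (lines). Blue bars are histone genes, orange bars the other gene sets described below, and the grey bar all protein-coding genes, at 18.8%. H4 genes stand at 100% and lone histone genes at 45.5%.

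The peaks at histone genes were also stronger than most in the list. The fold enrichment is the authors' linear ratio of signal to background for each peak. The background used is not given in the sources, so neither the folds nor the peak calls can be read as corrected for input at each gene. Over the occupied histone genes the strongest boundary peak had a median fold of 4.22 (2.0 to 10.8), beside 2.22 over all 4120 occupied protein-coding genes. In 58 of the 64 it lay above that 2.22. A boundary peak of at least 4-fold stood at 39 of the 64 histone genes, beside 1.32% of all protein-coding genes and 7.01% of the occupied ones. Some of the 39 reached this only through a summit in a neighbouring histone gene, so the same peak can count for several genes. With each peak counted once, 15 of the 80 peaks at histone genes (18.8%) reached 5-fold, beside 3.0% of the list. Equal values recur because the deposited folds come in steps of 0.0454. All 80 peaks at histone genes lay on a whole multiple of that step (to within 0.02 of a step), as did 98.1% of the list. Such a shared step is what ratios to a single common background value would give.

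The core histone genes of the nucleosome's inner tetramer, H3 and H4, gave the following values. H4c18, a clustered H4 gene, had the strongest peak of all histone genes at 10.8-fold, a wide interval of 2936 bp (chr13:21831495-21834430) with its summit 36 bp after the H4c18 start. H4c12 followed with 6.58-fold, H4c9 with 6.08-fold and H4c1 with 5.58-fold, each with the summit inside the gene. The lowest H4 values were 3.4-fold at H4c2 and 2.22-fold at H4c11, whose summit lay 4 bp before the start. The promoter windows of H4c11 and H4c12, with 2.22-fold and 6.58-fold, were 87.0% identical.

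Among the H3 genes H3c10 and H3c6 both reached 5.49-fold and H3c2 reached 5.04-fold. H3c1 was counted at 5.58-fold, but that summit lay in the neighbouring H4c1, and the peak inside H3c1 had 3.9-fold. The lowest values of occupied H3 genes were 3.63-fold at H3f3a, which encodes the replacement histone H3.3, and 3.36-fold at H3c15. No clustered H3 gene lacked a boundary peak.

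H2A and H2B genes encode the dimers that flank the tetramer. H2ac19, H2ac23 and H2ac7 each had a peak of 5.99-fold with the summit inside the gene. H2ac24 was counted with 10.8-fold only through the wide H4c18 interval. The summit of that interval lay 863 bp from the H2ac24 boundary, which made H2ac24 the member nearest to the 1 kb limit from within. The interval also covers H2ac24, and since an interval has 1 summit, signal over H2ac24 itself cannot be read. The highest H2B values, 5.99-fold at H2bc23 and H2bc7 and 5.85-fold at H2bc12, belonged to summits inside the H2A partners H2ac23, H2ac7 and H2ac12. H2bc4 had 5.36-fold at a summit of its own, while H2bc14 with 2.86-fold and H2bc21 with 2.0-fold were the lowest occupied H2B genes. H2ac20, H2ac21 and H2bc21 on chromosome 3 shared a single peak of 2.0-fold and 124 bp (chr3:96220771-96220894), the one peak that served 3 histone genes.

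The remaining clustered genes fell between these extremes, each read here from the strongest summit inside the gene. On chromosome 3 they were H3c14 with 3.95-fold, H2bc18 with 3.9-fold, H4c14 with 3.49-fold, H3c13 with 3.36-fold and H2ac18 with 2.86-fold. In the first chromosome 13 cluster H3c11 had 4.22-fold. In the second, the H4 genes H4c3, H4c4, H4c8 and H4c6 had 5.36-fold, 4.08-fold, 3.99-fold and 3.95-fold. The H3 genes H3c8, H3c4, H3c7 and H3c3 of that cluster had 4.45-fold, 4.08-fold, 4.04-fold and 3.77-fold, all above the list's median of 2.09. Its H2A genes H2ac10, H2ac6 and H2ac4 had 4.58-fold, 3.59-fold and 3.31-fold, and its H2B genes H2bc3 and H2bc9 had 3.86-fold and 2.95-fold. The peak of H2bc14 inside the gene, at 2.31-fold, was weaker than the 2.86-fold summit outside it.

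The H1 genes encode linker histones, which bind the DNA between nucleosomes. H1f2 was highest with 5.54-fold over an interval of 1391 bp, and H1f1 had 4.63-fold. H1f3 and the lone H1f10 followed with 3.45-fold and 3.09-fold. H1f5 with 2.86-fold and H1f4 with 2.22-fold were the lowest occupied H1 genes. The medians of the strongest boundary fold were 3.27 for H1, 4.58 for H2A, 4.4 for H2B, 4.08 for H3 and 4.04 for H4. These medians include summits that lay inside neighbouring genes. In the 52 genes with a summit within 250 bp of the start, that summit's median fold was 4.72 for H4. It was 4.4 for H2A, 4.31 for H3, 3.77 for H2B and 3.27 for H1. The order of the classes thus depended on the summit taken and was not tested.

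**Figure D2:**
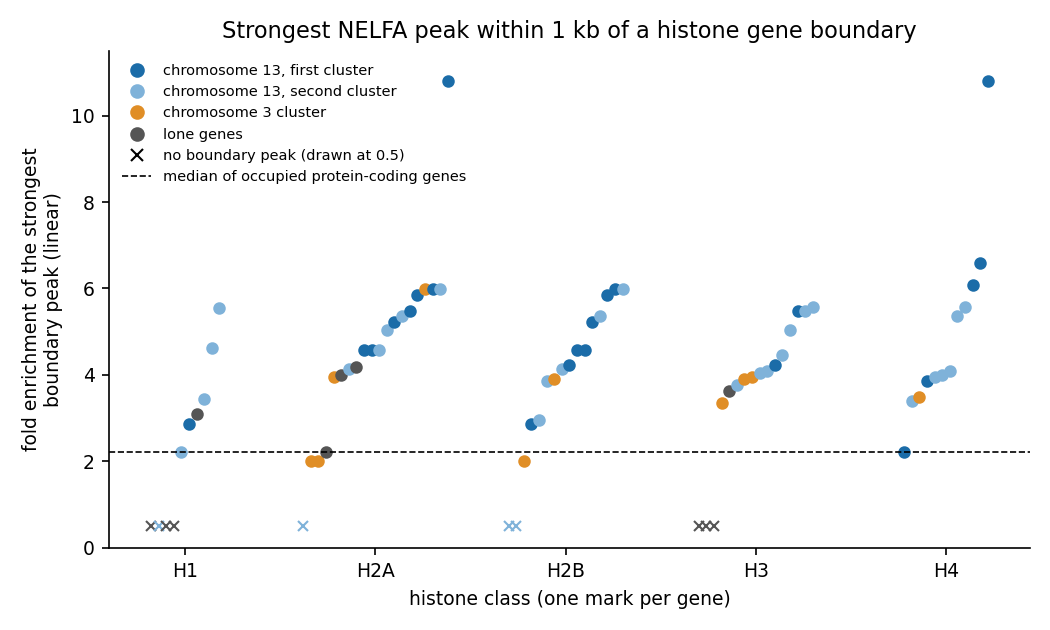
Fold enrichment of the strongest boundary peak (linear axis) for each of the 74 histone genes, by class and coloured by cluster. Crosses at 0.5 are the 10 genes without a boundary peak, and the dashed line is the median of occupied protein-coding genes, 2.22. The pair of marks at 10.8 are H4c18 and H2ac24, which share 1 peak.

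Of the 10 histone genes without a boundary peak, 6 are known for expression in germ cells. H1f6, H2ac1, H2bc1, H1f7 and H3f4 encode testis histones (H1t, TH2A, TH2B, H1T2 and H3t), and H1f8 encodes the linker histone of the oocyte. The nearest summit lay 169898 bp from H2ac1 and 170011 bp from H2bc1, the divergent pair at the far end of the second chromosome 13 cluster. It lay 1881 bp from H1f6, 7984 bp from H1f7, 4445 bp from H1f8 and 42933 bp from H3f4. Only H1f6 among these had a summit within 2 kb, and that summit lay inside the neighbouring H4c3.

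The other 4 were H1f0, H3f3c, H3f3b and H2bc6. H1f0 encodes a linker histone made outside S phase, and its nearest summit lay 114205 bp away. For H3f3c it lay 36270 bp away. H3f3b, the second gene of H3.3, and H2bc6 were missed by the boundary count but held a peak inside the gene. The peak in H3f3b had 4.4-fold (chr11:116024018-116024576), with its summit 58 bp after an annotated start that lies inside the outermost boundaries. The peak in H2bc6 had 3.63-fold (chr13:23585572-23586023), 97 bp after the second annotated start of that gene. With these counted, 66 histone genes had a peak at a boundary or inside, and 60 of the 66 exceeded 2.31, the median over the 7045 protein-coding genes with such a peak.

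The 5 occupied lone genes were H2ax, H2az1, H2az2, H3f3a and H1f10. H2ax, which encodes the DNA damage histone H2A.X, had 4.18-fold, and weaker summits of 2.09-fold and 1.91-fold in the gene. H2az1 had 3.99-fold at 126 bp after its start, with further summits of 2.31-fold and 2.04-fold inside and 2.09-fold outside the gene, while H2az2 had 2.22-fold at 158 bp after its start. Both encode H2A.Z, a variant found at the first nucleosomes of many genes. H3f3a had 2.59-fold at 153 bp after and 3.63-fold at 252 bp before its start. H1f10 had 3.09-fold in an interval of 1578 bp whose summit lay 109 bp before the start. Apart from H1f10 and H3f3a, the strongest peak of each lone gene lay inside the gene.

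The summits lay just inside the 5′ ends. The promoter table gives a start and strand for 68 of the 74 members. H2ax, H2bc4, H2bc21, H3c1, H3c7 and H4c14 are not among them. A summit lay within 250 bp of the start in 52 of the 68 (76.5%), beside 14.5% of 17491 protein-coding genes in that table. In 50 of the 52 the summit was downstream. Over all 52 the median position was 91.5 bp after the start (quartiles 61.75 and 127.5 bp, range -109 to 214 bp). For the 2477 other protein-coding genes with a summit that close, 74.4% were downstream, and the median position over all 2477 was 69 bp (quartiles -3 and 120 bp). Among the 52 the median peak width was 493 bp, beside 201 bp in those other genes, and the median fold 4.08, beside 2.22.

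**Figure D3:**
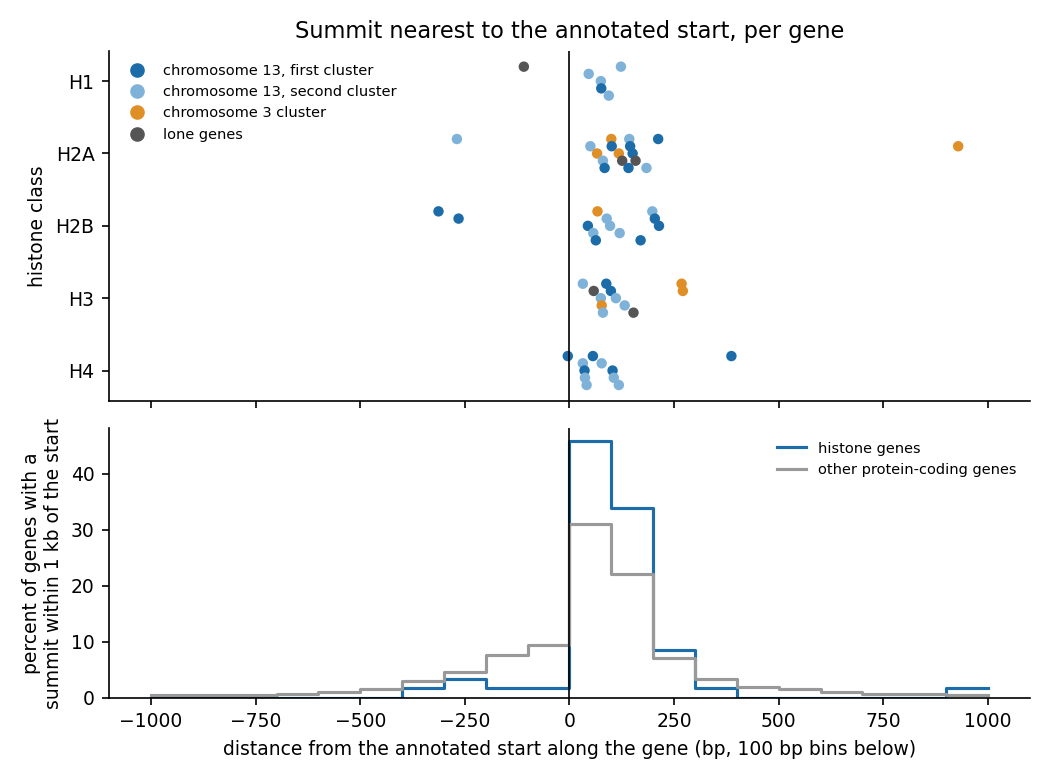
Distance of the nearest summit from the annotated start along the gene (bp, positive into the gene). The upper panel has a dot for each histone gene with a summit within 1 kb, by class; the lower panel gives the percent of histone genes (blue) and other protein-coding genes (grey) in 100 bp bins. Of the 59 histone genes, 79.7% lie at 0 to 200 bp after the start, beside 53.4% of the other genes.

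By class, the median offset was shortest for H4 and longest for H2A. The class medians were 48.5 bp for H4, 75.5 bp for H1, 84 bp for H3, 97 bp for H2B and 126 bp for H2A. The H4 summits at 32 bp (H4c3), 36 bp (H4c18), 37 bp (H4c4) and 41 bp (H4c6) were among the nearest to a start. In H2A genes the summit of H2ac22 lay 151 bp and that of H2ac12 lay 212 bp after the start. These class differences were not tested.

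Most histone genes are shorter than 1 kb, so a summit near one end is also near the other. In 47 such genes (median length 490 bp) the nearest summit fell inside the gene, at a median of 18% of the gene's length from the start. It lay nearer to the start than to the end in 46 of the 47. The exception was H4c17, whose 3.86-fold summit lay 387 bp after the start and 17 bp from the gene's end. In 38 of the 47 the interval of the peak ran across the start itself.

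The 64 occupied genes rested on 80 distinct peaks. Of these, 48 served 1 histone gene, 31 served 2 and 1 served 3. Their median width was 396.5 bp (48 to 2936 bp), beside 170 bp in the list, and their median fold 3.65, beside 2.09. A summit inside the gene was found for 57 of the 64 genes. H1f10, H2ac8, H2ac21, H2ac24, H2bc15, H2bc21 and H4c11 had theirs only outside the gene.

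Peaks just after a start had the highest median fold. The 48 peaks with a summit up to 250 bp after a histone gene start had a median fold of 4.11. The 3 with a summit up to 250 bp before one had a median of 2.22. Only 4 peaks lay within 250 bp of a gene end and of no start, with a median of 2.04 (1.86 to 3.86), and the highest of these was the H4c17 peak. A further 18 peaks lay farther from the starts and ends of the members with an entry in the promoter table (median 2.11). Among them is the 5.36-fold peak inside H2bc4, 145 bp from a boundary of that gene, which has no entry. The last 7 peaks served only genes without an entry (median 3.49).

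Divergent H2A and H2B pairs showed where summits fall between neighbouring starts. Among the members with a strand in the promoter table there were 9 pairs, with spacers of 163 to 280 bp between the starts. H2bc4 and H2bc21, next to H2ac6 and H2ac20, have no entry there and could not be paired. No summit lay in any of the 9 spacers. In 5 pairs each gene had its own summit, 377 to 605 bp apart (median 560 bp). The folds were 3.68 in H2bc13 and 4.22 in H2ac13, and 5.22 in H2ac22 and 3.77 in H2bc22. They were 5.85 in H2ac12 and 4.27 in H2bc12, the first of the spacers printed above. The remaining pairs of this kind had 4.4 in H2ac11 and 4.58 in H2bc11, and 2.86 in H2bc7 and 5.99 in H2ac7. Neither histone type was uniformly the higher, with H2A ahead in 4 pairs and H2B in 1.

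In 3 pairs a single interval covered the whole spacer, with its summit in one gene. The summit lay in H2ac15 for H2ac15 and H2bc15 (4.58-fold, 826 bp) and in H2ac23 for H2bc23 and H2ac23 (5.99-fold, 2267 bp). It lay in H2bc8 for H2ac8 and H2bc8 (4.13-fold, 1039 bp). A peak list gives 1 summit to an interval, so signal over the partner gene cannot be read from these. The testis pair H2bc1 and H2ac1 had no peak.

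**Figure D4:**
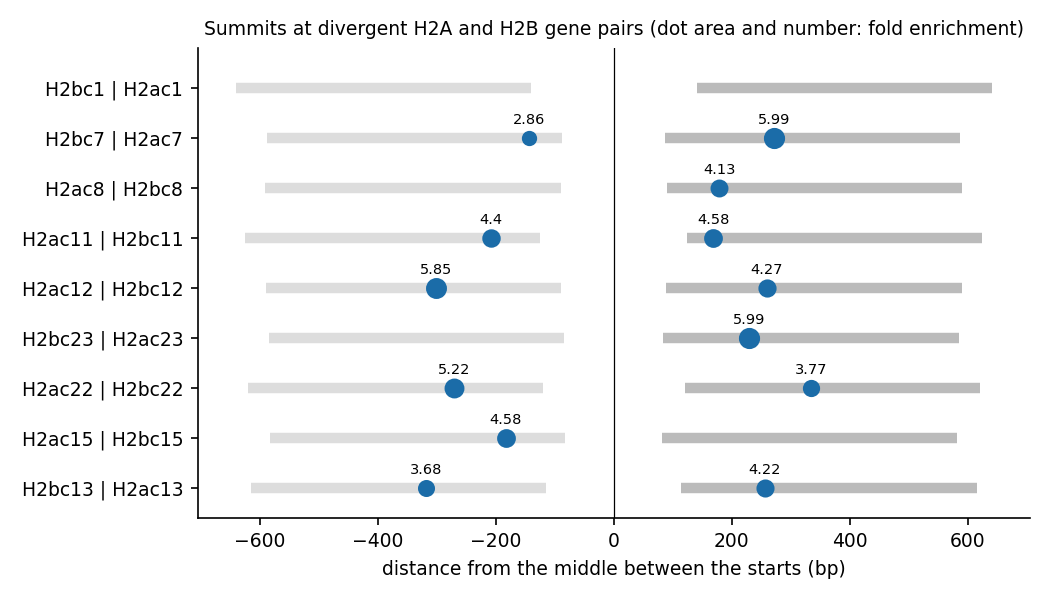
Summits (dots, area and number give the fold enrichment) at 9 divergent H2A and H2B gene pairs, by distance from the middle between the starts (bp). The grey bars mark the 500 bp searched on each side from a start, not the gene lengths, and the gap between them is the spacer. No dot falls in a spacer, and H2bc1 and H2ac1 have none.

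Taken over the 3 clusters together, most peaks stood at histone genes. The first chromosome 13 cluster (chr13:21715711-22043658, 328 kb) held 22 histone genes, all occupied, and 45 peaks. The second (chr13:23531044-23934913, 404 kb) held 31, of which 27 were occupied, and 38 peaks. The chromosome 3 cluster (chr3:96219885-96270192, 50.3 kb) held 10, all occupied, and 12 peaks. These are 13.7, 9.41 and 23.9 peaks per 100 kb, beside 2.17 per 100 kb over the list. The strongest were the H4c18 peak in the first cluster, the H2ac7 peak in the second and the H2ac19 peak on chromosome 3.

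Of the 95 peaks, 68 lay in one of the 63 member genes or within 1 kb of one. By cluster these were 23 of 45 in the first, 33 of 38 in the second and 12 of 12 on chromosome 3. The other 27 include a 2.41-fold peak at H4bc24, a histone gene outside the symbol rule. Those windows were covered by peak intervals to 27.7% in the first, 14.7% in the second and 21.8% in the chromosome 3 cluster. The rest of the clusters was covered to 2.48%, 0.364% and 0%. Median folds were 4.22 near members and 2.11 elsewhere in the first cluster, and 3.9 and 2.0 in the second.

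The same stretches hold 9 protein-coding genes that are not histone genes. Of these only Zfp184, a zinc finger gene, was occupied, at 1.86-fold, with a further peak of 3.95-fold deeper inside the gene. That is 11.1% (interval 1.99 to 43.5%), an interval that includes the 18.8% of all protein-coding genes. Hfe, an iron regulator, the solute carrier genes Slc17a1 and Slc17a2, the protease gene Prss16 and Pom121l2 were not. A small group on chromosome 11 with H2bu2, H2aw and H3f4 (chr11:58948911-58962273, 13.4 kb) held no summit, also with 1 kb added on each side. H3f4 was counted as a lone gene because H2bu2 and H2aw lie outside the symbol rule.

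**Figure D5:**
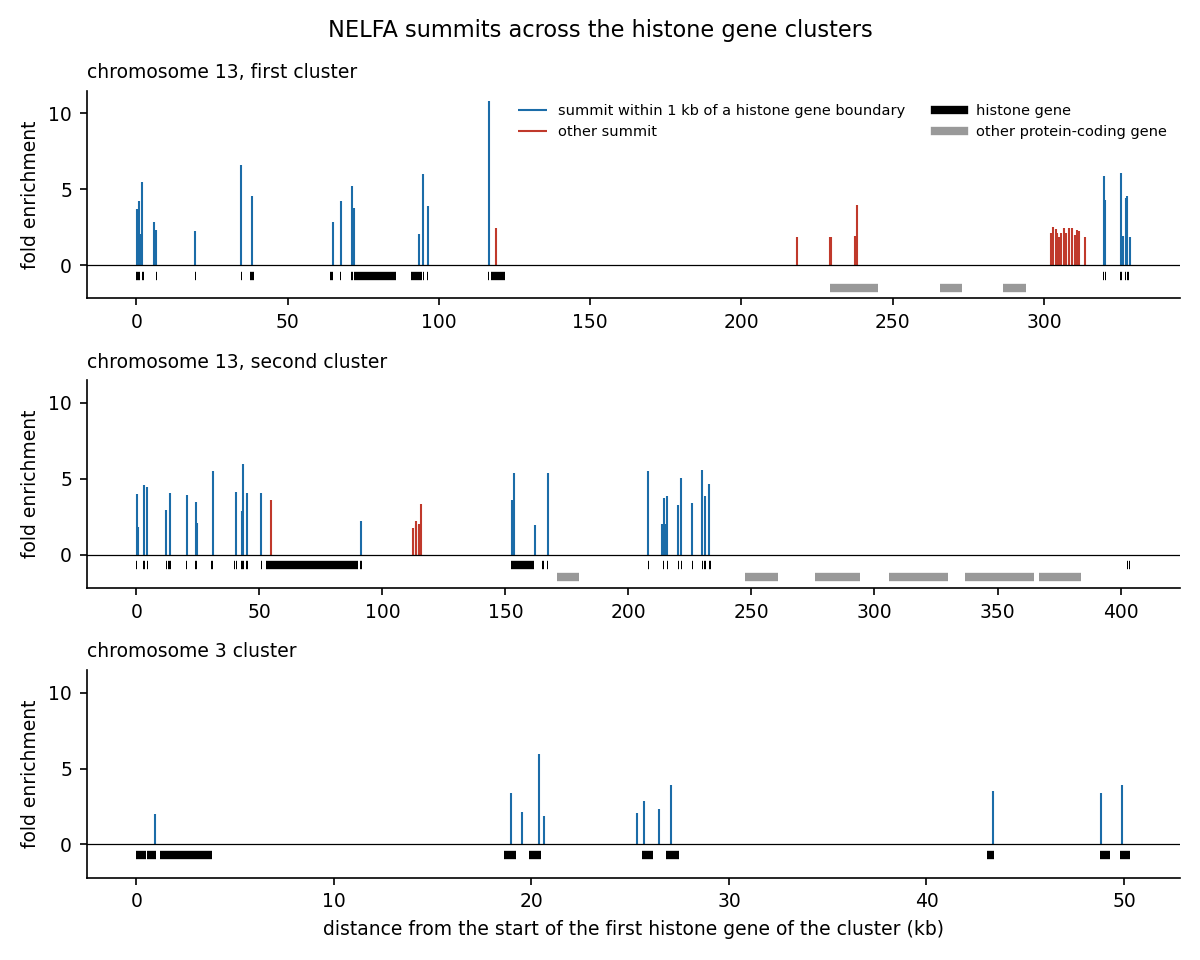
Fold enrichment of each summit (vertical lines) along the 3 histone clusters, by distance from the first histone gene (kb). Blue lines lie within 1 kb of a boundary of one of the 63 clustered members and red lines do not; black bars are these members and H4bc24, which lies outside the symbol rule, and grey bars are other protein-coding genes. The red 2.41-fold line in the first cluster is at H4bc24. The 10.8-fold line in the first cluster is the H4c18 peak, and the red line near 55 kb in the second cluster is the peak inside H2bc6.

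The promoter letters shown above were counted in all 68 members of the promoter table, in 300 bases from 250 before to 50 after the start, on both strands. TATAAA occurred in 36 of 68 (52.9%), beside 13.3% of all 17491 protein-coding promoters. CCAAT occurred in 56 of 68 (82.4%), beside 38.9%, and ATTTGCA in 14 of 68 (20.6%), beside 3.77%. None of the 3 motifs contains another, although their ends can overlap. Of the promoters with TATAAA, 24 had it on the strand of the gene before the start, and in 12 its first letter lay 20 to 40 bases upstream.

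These letters were unevenly spread over the classes. CCAAT was in all 19 H2A and all 14 H2B promoters and in 13 of 14 H3 promoters, but in 3 of 11 H4 promoters. TATAAA was in 8 of 11 H4 promoters and in 4 of 10 H1 promoters. ATTTGCA was in 7 of 14 H2B and 6 of 19 H2A promoters, in 1 H3 promoter and in none of the H1 and H4 promoters. Divergent H2A and H2B genes share their spacer and so share such letters. Among the 9 members with no summit within 1 kb of the start, 3 had TATAAA, 6 had CCAAT and 2 had ATTTGCA.

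Near-identical copies can share reads, and the handling of multiply aligned reads is not given in the sources. Between promoter windows of the 68 members the median identity over 2278 pairs was 45%. Only H4c17 and H4c18 were at 90% or more, with 99%, followed by H3c14 and H3c15 with 89.7%. The H4c17 and H4c18 peaks are therefore uncertain as separate measurements, and their summits differed in place and fold (3.86 at 387 bp and 10.8 at 36 bp after the start). The compared windows end 50 bases after the start, while the median summit lay 91.5 bp after it. Coding sequences were not compared, so shared reads at the other members cannot be judged from these identities.

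Genes that serve histone production were also counted, with no test against the histone genes. In a list of 31 genes of histone mRNA transcription and processing 13 were occupied (41.9%, interval 26.4 to 59.2%), beside 18.8% of all protein-coding genes. Slbp, the stem-loop binding protein, had 3.72-fold at 308 bp after its start. Snrpg, a subunit of the Sm ring, had 3.13-fold, the NF-Y subunit gene Nfya 2.86-fold, the cleavage factor gene Cpsf1 2.77-fold and the H4 transcription factor gene Hinfp 1.95-fold. No boundary peak stood at Npat, the coactivator of histone genes, at Casp8ap2 or Lsm11, a subunit of the U7 particle, nor at Ccne1, Cdk2 and Coil.

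In a list of 29 histone chaperone genes 15 were occupied (51.7%, interval 34.4 to 68.6%), also beside 18.8%. Set had 3.72-fold, the CENP-A chaperone gene Hjurp 3.54-fold, Ncl 3.49-fold and Ubn2, a subunit of the HIRA complex, 3.31-fold. Atrx, Cabin1, Chaf1a and Chaf1b, the last pair encoding subunits of chromatin assembly factor 1, had none. These values leave out peaks deeper inside a gene. Hira had such a peak of 7.63-fold beside 1.86-fold at a boundary. Npm1 and Nasp, counted as not occupied, had 5.95-fold and 3.4-fold inside the gene. Of 29 other histone variant genes only H2aj was occupied, at 1.91-fold (3.45%, interval 0.611 to 17.2%). Macroh2a1, counted as not occupied, had 3.0-fold inside the gene. Cenpa, which encodes the centromeric H3, and the H2A.B genes H2ab1, H2ab2 and H2ab3 were without a boundary peak. So were all 18 genes of the H2al family, a count of 0 with a Wilson upper limit of 17.6%. Both upper limits lie close to the 18.8% of all protein-coding genes. The sequences of the H2al genes were not compared, so any effect of shared reads on their count cannot be judged.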

How the data were processed

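Formaldehyde-fixed chromatin was precipitated through the HA tag, per the labels' protocols. The submitters' processing notes name Trim Galore 0.4.2, Bowtie2 2.2.9, SAMtools 1.4, MACS2 (no version) and mm10. Call settings, pooling of libraries and treatment of multiply aligned reads were not given in the sources used here. Peak names include R1234 and MAPQ0, which no source explains. The deposited list gives each peak a linear fold ratio, a −log10 q (lowest 1.31) and a score. Each fold value went with 1 −log10 q, so these rank peaks alike. Depth is unknown.

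Genes came from RefSeq tables of GRCm38.p6, the assembly behind mm10. Summits within 1 kb of either boundary, and within 250 bp of annotated starts, were counted with pandas 2.3.3 and numpy 2.4.6 in Python 3.11.15, intervals with scipy 1.17.1 and figures with matplotlib 3.10.9. The counting was tested on simulated peaks. No set test or resampling was run. Members and lists were chosen with earlier results of these data known. Listed symbols absent from the gene table were dropped. Named were all members without a boundary peak, all lone members, the 4 highest and 2 lowest of each class, the strongest peak of each cluster, peaks serving 3 or more members, neighbouring genes, and the 4 highest and up to 4 unoccupied genes of each list, with Npat, Slbp, Casp8ap2, Lsm11 and Hinfp always. Further members and listed genes are named as examples of position, pairing or sequence.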

Additional observations from a re-analysis of the deposited data

How the results depend on the processing

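The share of histone genes with a boundary peak stayed between 82.4% and 90.5% under the windows of 500 bp and 2 kb, the limits on fold and q, and interval overlap. H2ac24 was lost at 500 bp. H1f6, H2bc6 and H3f3b were gained at 2 kb. Of these, H1f6 was gained through the summit inside H4c3 and H2bc6 through the summit inside H1f4. The peak inside H2bc6 itself lay 2203 bp from a boundary, and only H3f3b was gained through a peak of its own. H2ac20, H2ac21 and H2bc21 were lost when only peaks reaching the list's median fold, or a −log10 q of 4, were used. The share of all protein-coding genes moved to 16.1% (500 bp), 21.8% (2 kb), 12.4% (median fold) and 9.81% (q limit). With the q limit the occupied genes fell to 7 for mRNA processing, 6 for chaperones and 0 for other variants. With gaps of at most 250 kb, the clusters held 12.1 peaks per 100 kb, a cover of 5.38% and 11.1% (1 of 9) of non-histone neighbours occupied. Gaps of 100 kb gave 17.8 peaks per 100 kb, a cover of 8.37% and 0% (0 of 1). Gaps of 2 Mb gave 5.86 peaks per 100 kb, a cover of 2.47% and 4% (2 of 50). Clusters then hold more or less of the sequence between histone genes. By alternatives chosen after seeing the data, the histone share was 76.5% for summits within 250 bp of a start, and 86.1% without H4c17 and H4c18. Leaving out H4c17 and H4c18 does not address reads that other members may share through their coding sequences. No paired analysis was possible because the 1 list has no column for a single library, and no replicate could be left out for the same reason.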

Other observations

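Away from histone genes, the first chromosome 13 cluster held a run of 16 summits under 2 kb apart over 11.2 kb (chr13:22017993-22029210). Their folds were 1.82 to 2.5, and the peak intervals covered 50.1% of the run. No protein-coding gene lies there, and 3 tRNA genes do (n-TRacg1, n-TScga1 and n-TVcac8). The cluster holds 31 tRNA genes, of which 5 had a summit within 250 bp, while 37 of 408 tRNA genes in the table (9.07%) had one. This run was singled out after its values were seen.

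A few histone loci outside the symbol rule were looked up after the counts were known. H4f16 on chromosome 6 had a boundary peak of 5.85-fold, and H4bc24 in the first chromosome 13 cluster had 2.41-fold. The pseudogenes H2ac14 and H2ac5-ps had 2.86-fold and 3.86-fold, from peaks that also stand near H2bc14 and H2bc3.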
